A study of Mus musculus with 21 samples.

Results

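The genes described here belong to the IRE1 and ATF6 arms of the unfolded protein response, the programme by which a cell answers a load of unfolded protein in the endoplasmic reticulum (ER). They are 10 genes chosen by name: the sensors Ern1 and Atf6, the transcription factor Xbp1, the genes of ER-associated degradation Edem1, Herpud1 and Sel1l, and the co-chaperones and folding factors Dnajb9, Dnajc3, Sdf2l1 and Creld2. All 10 of them were among the 55487 genes counted and among the 18146 genes with enough counts to be tested. The RNA came from the hippocampus of male wild type C57BL/6 mice, killed at 10 weeks of age, with 1 poly-A library per mouse. In maternal separation (MS), whole nests were kept from the dam for 4 hr a day from postnatal day 10 to postnatal day 17, and the nesting material of the home cage was reduced. Mice of the standard rearing (SR) group stayed with their dams. The comparison asks what early life stress leaves behind in the adult hippocampus, long after the last separation.

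IRE1, the protein of Ern1, is a kinase and ribonuclease in the ER membrane that cuts an intron out of the Xbp1 mRNA, and the spliced mRNA is translated into an active transcription factor. ATF6 is itself a transcription factor held in the ER membrane, which moves to the Golgi under stress and is released there by the proteases Mbtps1 and Mbtps2. Both factors act on genes for chaperones of the ER and for ER-associated degradation (ERAD), the route by which misfolded proteins are drawn out of the ER and destroyed. Neurons make large amounts of membrane and secreted protein and use this system without any acute stress. Counts per gene cannot show splicing of Xbp1 or cleavage of ATF6, so the activity of the sensors was not measured and only the mRNA levels are given.

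Each MS library and SR library is 1 mouse, 9 and 12 in all, with total counts of 17276810 to 30449055. The MS library A2, which has the highest total, was left out of the main comparison because it lay apart. On the first principal component of all 21 libraries it scored 27.1, and the other 20 libraries scored from -12.2 to 11.9. Its summed level of 5 markers of dentate granule cells, a cell type that defines the hippocampus, was 25.6 CPM (counts scaled to a common library total), against 203 to 481 CPM in the other 20 libraries, and its summed level of 7 striatal markers was 1969 CPM, against 81.9 to 680 CPM. The main comparison therefore holds 8 MS and 12 SR mice, and values with A2 are given beside it. The mice carry consecutive animal numbers in 7 sets of 3, each of 1 condition, called here A, B and C (MS) and D, E, F and G (SR). The labels do not name nests, and mice of the same set may be littermates, so the mice of a set may not be independent and tests were also run with the set as the unit. Sets C and G lie in a higher range of animal numbers than the other 5 sets.

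XBP1 and ATF6 are known to bind short promoter elements, and these letters were searched on both strands of the promoter windows of RefSeq (assembly GRCm38.p6), from 250 bases before to 50 bases after the annotated start. The ER stress response element (ERSE) was written as CCAAT, then 9 bases of any kind, then CCACG, and ERSE-II as ATTGG, then 1 base, then CCACG. The third motif, the unfolded protein response element (UPRE), was TGACGTGG, which holds the letters CCACG on its opposite strand. This core CCACG, which the first pair also contain, was searched alone as well. Of the members, 9 matched a window by symbol, all but Atf6. The stretches from 250 bases upstream to the base before the start are shown for the 3 members that held a full element, with its letters in capitals, and for Sdf2l1, the member with the largest difference between the groups, which held none.
Dnajc3, chr14:118937682-118937931, plus strand: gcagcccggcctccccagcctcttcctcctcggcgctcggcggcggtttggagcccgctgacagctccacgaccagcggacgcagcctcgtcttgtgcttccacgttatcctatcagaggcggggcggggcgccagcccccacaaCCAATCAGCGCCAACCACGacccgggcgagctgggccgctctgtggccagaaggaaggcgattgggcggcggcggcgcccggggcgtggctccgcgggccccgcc
Creld2, chr15:88819396-88819645, plus strand: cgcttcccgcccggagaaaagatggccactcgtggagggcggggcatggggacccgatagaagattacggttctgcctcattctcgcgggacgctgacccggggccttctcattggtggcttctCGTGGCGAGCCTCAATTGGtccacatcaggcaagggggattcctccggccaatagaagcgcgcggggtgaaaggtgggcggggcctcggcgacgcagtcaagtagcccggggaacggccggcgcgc
Herpud1, chr8:94386179-94386428, plus strand: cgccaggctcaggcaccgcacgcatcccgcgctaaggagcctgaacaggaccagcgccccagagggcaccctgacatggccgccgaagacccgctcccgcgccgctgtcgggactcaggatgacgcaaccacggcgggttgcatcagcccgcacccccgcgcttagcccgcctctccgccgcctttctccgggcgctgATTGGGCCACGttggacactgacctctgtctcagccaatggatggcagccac
Sdf2l1, chr16:17132384-17132633, minus strand: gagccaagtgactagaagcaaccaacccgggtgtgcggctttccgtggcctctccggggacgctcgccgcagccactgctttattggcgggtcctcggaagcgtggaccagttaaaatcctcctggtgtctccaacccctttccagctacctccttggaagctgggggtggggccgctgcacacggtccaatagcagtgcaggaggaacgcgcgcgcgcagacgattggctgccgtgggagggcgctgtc

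Dnajc3 held the ERSE letters at bases -105 to -87 from its start on the strand of the gene. Creld2 held them at -126 to -108 on the opposite strand, so that the capitals read CGTGG, 9 bases, ATTGG. Herpud1 held the ERSE-II letters at -52 to -42. Full ERSE letters were thus in 2 of 9 member windows, against 39 of all 32851 windows (0.119%), and ERSE-II letters in 1 of 9, against 12 of all windows (0.0365%). UPRE was in 0 of 9 member windows and in 0.676% of all windows. The core alone was in 8 of 9, all but Xbp1, and in 32.8% of all windows. A match is a run of letters in this window and not a measured binding site. The members were chosen by name as genes of these arms, so the shares describe them and are no test of them.

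**Figure D1:**
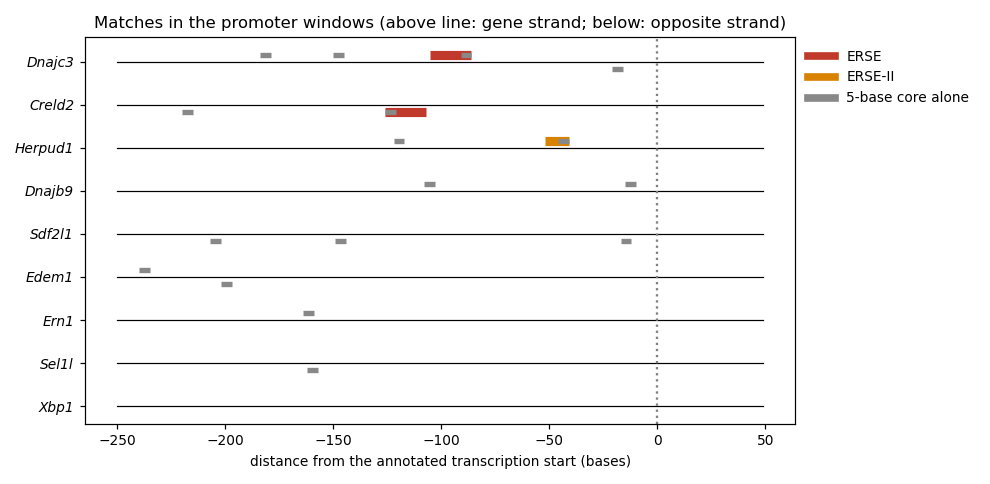
Positions of motif letters in the promoter windows of 9 members, in bases from the annotated start (dotted line), drawn above the line for the strand of the gene and below it for the opposite strand. ERSE letters (red) lie in Dnajc3 and Creld2, ERSE-II letters (orange) in Herpud1, and the core (grey) in 8 of the 9 windows.

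The group as a whole sat slightly higher in MS mice, with no member past the adjusted threshold. In edgeR's quasi-likelihood test, 0 of the 10 members had an adjusted p under 0.05, where 2 of 18146 genes (0.0110%) did, and in DESeq2 0 of 10 did, where 0.775% of the genes did. At an unadjusted p under 0.05, 6 members were higher in MS (Xbp1, Herpud1, Dnajb9, Dnajc3, Sdf2l1 and Creld2), against 6.62% of all genes tested. Atf6 was lower at that level, as were 4.92% of all genes. The log2 fold change was above 0 in 9 of 10 members and in 50.3% of all genes, and its median was 0.15 over the members and 0.00084 over all genes. These members were chosen with earlier results of these data in view, so the counts describe the list and do not test it. The values of the mice overlapped between the groups for all 10 members, as they did for all but 0.0110% of the genes tested.

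**Figure D2:**
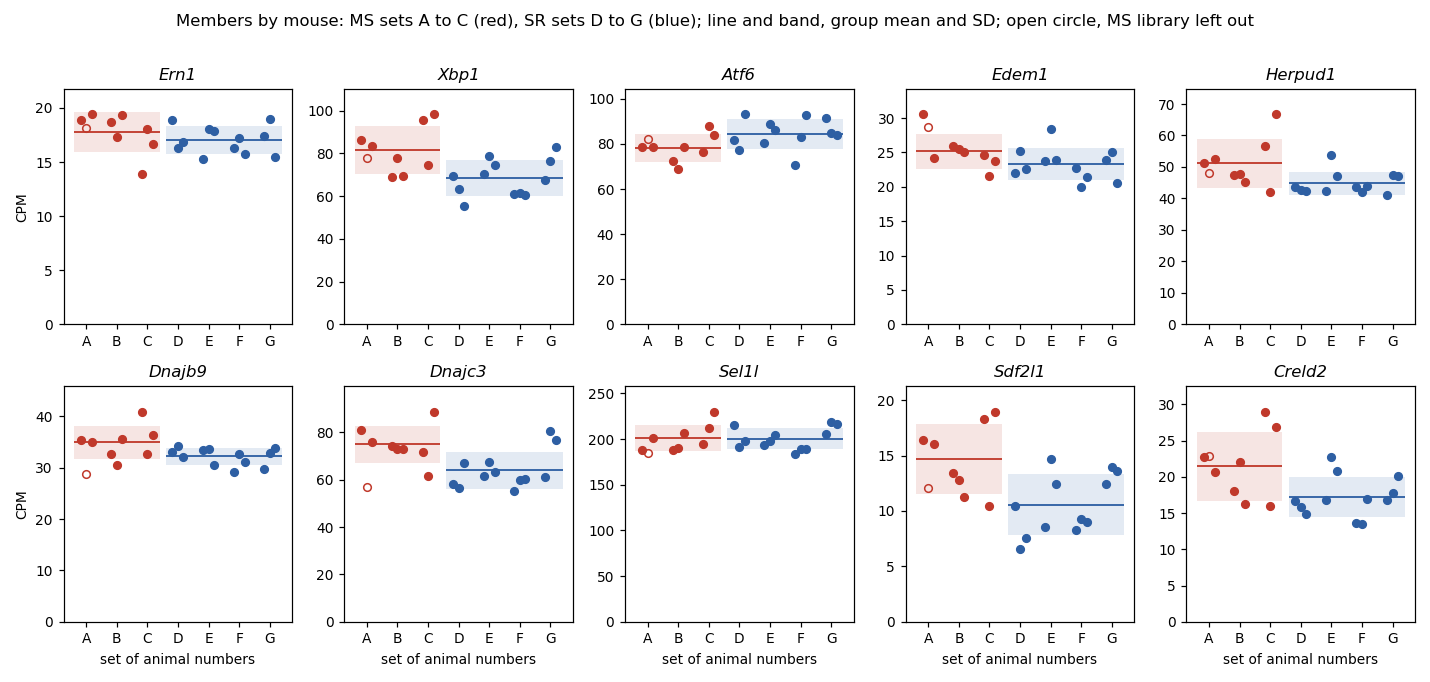
CPM of the 10 members in each mouse, by set of animal numbers, with MS sets A to C in red and SR sets D to G in blue. The line and band are the mean and SD of 8 MS and 12 SR mice, and the open circle is the MS library A2, left out of both, and the bands of MS and SR lie farthest apart relative to their level for Sdf2l1 and nearly coincide for Sel1l.

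Of the sensors, Ern1 (chromosome 11, 106394650 to 106487852, minus strand, GRCm38) was the least abundant member for its length. Its level ran from 13.9 CPM through a median of 18.4 to 19.4 CPM in MS mice and from 15.3 through 17.0 to 19.0 CPM in SR mice. The ranges lay on top of each other, with the MS mouse C1 lowest of all 20. The means were 17.8 ± 1.83 CPM (SD, n = 8) and 17.0 ± 1.26 CPM (SD, n = 12), and the log2 fold change was 0.06 (SE 0.0593, edgeR adjusted p = 0.729). Without C1 it was 0.11 (edgeR unadjusted p = 0.0462), and without A3 or B3 it was 0.04.

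Atf6 (chromosome 1, 170704674 to 170867771, minus strand) was the only member that was lower in MS in this fit. It ran from 68.7 through a median of 78.6 to 87.9 CPM in MS and from 70.7 through 84.4 to 93.2 CPM in SR. The SR median lay above 7 of the 8 MS mice, and 4 SR mice lay above every MS mouse. The means were 78.2 ± 6.01 and 84.6 ± 6.61 CPM, a log2 fold change of -0.11 (SE 0.0497, edgeR unadjusted p = 0.0322, adjusted p = 0.379), so the difference did not pass the threshold.

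Xbp1 (chromosome 11, 5520659 to 5525893, plus strand), which encodes the transcription factor of the IRE1 arm, ran from 69.1 through a median of 80.6 to 98.4 CPM in MS mice and from 55.4 through 68.6 to 82.9 CPM in SR mice. Every one of the 8 MS mice lay above the SR median, which holds for 2.07% of all genes tested, and 4 of them (A1, A3, C1 and C3) lay above every SR mouse. The mean was 81.8 ± 11.2 CPM in MS and 68.5 ± 8.51 CPM in SR, 19.5% higher in MS. This is a log2 fold change of 0.26 (SE 0.0788, 95% interval 0.09 to 0.42, edgeR unadjusted p = 0.00358, adjusted p = 0.210), and DESeq2 gave an adjusted p of 0.0922. Its spread between mice of a group was 13.7% of the mean in MS and 12.4% in SR, where counting error alone would give 2.50%, so depth did not set the precision.

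The ERAD members did not move alike. Edem1 (chromosome 6, 108828641 to 108859356, plus strand), a lectin that picks out trimmed glycoproteins for degradation, ran from 21.6 through 24.8 to 30.6 CPM in MS and from 19.97 through 23.2 to 28.4 CPM in SR. The ranges overlapped, with 7 of 8 MS mice above the SR median, and the log2 fold change was 0.11 (SE 0.0626, edgeR adjusted p = 0.514). Without the highest MS mouse, A1, it was 0.06 (edgeR unadjusted p = 0.310). Sel1l (chromosome 12, 91806043 to 91849157, minus strand), the adaptor of the ubiquitin ligase Syvn1, was the member whose log2 fold change lay closest to 0. It ran from 188 through 197.7 to 230 CPM in MS and from 184 through 197.6 to 219 CPM in SR. Its log2 fold change was 0.0066 with a 95% interval of -0.08 to 0.09 that takes the 20 mice as independent.

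Herpud1 (chromosome 8, 94386438 to 94395377, plus strand), an ER membrane protein of the same ligase complex, ran from 42.0 through 49.5 to 66.7 CPM in MS and from 41.2 through 43.6 to 53.9 CPM in SR. The MS mouse C2 was the lowest of its group and C3 the highest of all 20, so set C held both ends of the MS range, and 7 of 8 MS mice lay above the SR median. The mean was 51.2 ± 7.75 CPM in MS and 44.8 ± 3.59 CPM in SR, 14.3% higher in MS. On the log2 scale the difference was 0.19 (SE 0.0668, edgeR unadjusted p = 0.00823, adjusted p = 0.264), and without C3 it was 0.13 (unadjusted p = 0.0336).

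Dnajb9 and Dnajc3 encode J-domain partners of the ER chaperone BiP, the protein of Hspa5. Dnajb9 (chromosome 12, 44205559 to 44210326, minus strand), which is also known to help BiP hold IRE1 inactive, ran from 30.5 through 35.2 to 40.9 CPM in MS and from 29.1 through 32.8 to 34.2 CPM in SR. The spread was small, and 5 of 8 MS mice lay above every SR mouse while the other 3 lay among them. Its log2 fold change was 0.12 (SE 0.0465, edgeR unadjusted p = 0.0196, adjusted p = 0.335), and the library A2, at 28.8 CPM, lay below every other mouse.

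Dnajc3 (chromosome 14, 118937976 to 118981697, plus strand), also known as an inhibitor of the kinase PERK, ran from 61.7 through 73.8 to 88.7 CPM in MS and from 55.2 through 61.4 to 80.4 CPM in SR. All 8 MS mice lay above the SR median, and the SR mice G2 and G3, at 80.4 and 76.7 CPM, each lay above 6 of the 8 MS mice. The mean was 74.9 ± 7.76 CPM in MS and 64.0 ± 7.80 CPM in SR, 17.0% higher in MS. It differed by 0.23 on the log2 scale (SE 0.0686, 95% interval 0.08 to 0.37), with an unadjusted p of 0.00311, the smallest of the members, an adjusted p of 0.205 in edgeR and an adjusted p of 0.0965 in DESeq2. A2 held 56.9 CPM, lower than every other MS mouse.

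Sdf2l1 (chromosome 16, 17130138 to 17132383, minus strand), a small ER protein that works with BiP and its J-domain partner Dnajb11, had the largest difference of the members. It ran from 10.5 through 14.7 to 19.0 CPM in MS and from 6.55 through 9.85 to 14.7 CPM in SR. All 8 MS mice lay above the SR median, 4 of them (A1, A3, C1 and C3) above every SR mouse, and 7 SR mice lay below every MS mouse. The mean was 14.7 ± 3.18 CPM in MS and 10.6 ± 2.75 CPM in SR, 39.2% higher in MS. The log2 fold change was 0.48 (SE 0.151, 95% interval 0.16 to 0.79, edgeR unadjusted p = 0.00478, adjusted p = 0.229), and DESeq2 gave an adjusted p of 0.0836. It was the member of fewest reads, 150 to 407 counts per library, and the most variable in SR, with an SD of 26.0% of the mean where counting error would give 6.17%.

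Creld2 (chromosome 15, 88819646 to 88826683, plus strand), an ER protein that can also be secreted, ran from 16.0 through 21.3 to 29.0 CPM in MS and from 13.4 through 16.8 to 22.7 CPM in SR. The MS mice C1 and C3 lay above every SR mouse, and C2 and B3 lay below the SR median. The mean was 21.4 ± 4.73 CPM in MS and 17.2 ± 2.81 CPM in SR, 24.8% higher in MS. This corresponds to a log2 fold change of 0.32 (SE 0.114, 95% interval 0.08 to 0.56, edgeR unadjusted p = 0.0102, adjusted p = 0.288).

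Taking A2 back in, so that 9 MS mice stood against 12 SR mice, left 6 members higher at an unadjusted p under 0.05 in edgeR, against 6.83% of all genes, and 0 of 10 past the adjusted threshold, which 0.00553% of the genes passed. The list of those 6 changed by 1 gene each way, since Edem1 entered it (log2 fold change 0.13, unadjusted p = 0.0412) and Dnajb9 left it (0.09, unadjusted p = 0.0947). The difference of Dnajc3 was 0.19 with A2 and that of Xbp1 was 0.25.

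Sets of the same condition also differed. Mean Xbp1 was 84.8, 72.1 and 89.6 CPM in the MS sets A, B and C, and 62.8, 74.6, 60.8 and 75.7 CPM in the SR sets D, E, F and G. The MS set B therefore lay below the SR sets E and G. Mean Sdf2l1 was 16.2, 12.5 and 15.9 CPM in A, B and C, and 8.20, 11.9, 8.84 and 13.3 CPM in D to G. Here too set B lay below set G, and sets D and F were the lowest for both genes.

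With the mean of a set as the unit, 3 MS sets stood against 4 SR sets. The exact permutation test over the 35 splits took its two-sided p as 2 times the smaller tail, and that p cannot fall below 0.0571. Dnajc3 was the only member whose set means did not overlap between the conditions, which 9.94% of all genes tested also showed in either direction. Its set means were 78.4, 73.5 and 74.0 CPM in A, B and C and 60.5, 64.2, 58.4 and 72.8 CPM in D to G (exact permutation p = 0.0571, the smallest possible). Set A is the mean of 2 mice here. A2, left out of it, held 56.9 CPM of Dnajc3, below all 4 SR set means, and the permutation test was not repeated with A2. Exact permutation p over sets lay between 0.114 and 1.0 for the other 9 members. When the counts of a set were summed and tested in edgeR, 6 members (Xbp1, Herpud1, Dnajb9, Dnajc3, Sdf2l1 and Creld2) were higher at an unadjusted p under 0.05, against 4.98% of all genes, and 0 of 10 passed the adjusted threshold. Sdf2l1 differed by 0.49 (SE 0.189) and Xbp1 by 0.26 (SE 0.103) in that fit.

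The comparison was also made within each range of animal numbers. In the lower range (sets A and B against D, E and F), Dnajc3 was higher in MS by 0.31 on the log2 scale (SE 0.0489, edgeR adjusted p = 0.0153). It passed the threshold there, as did 1.25% of the genes tested in that range. The library A2 of set A, at 56.9 CPM of Dnajc3, was left out of this fit, which was not repeated with A2. In the higher range (set C against set G), the difference of Dnajc3 was 0.02 (SE 0.146). The test of the difference between the ranges gave -0.28 for Dnajc3 (SE 0.129, unadjusted p = 0.0377, adjusted p = 0.550 in edgeR), and 0 of 18146 genes passed it, with 1573 at an unadjusted p under 0.05. With A2 kept, that value for Dnajc3 was -0.22 (edgeR unadjusted p = 0.145), and no other member had an unadjusted p under 0.05 in this test in either fit. Xbp1 differed by 0.22 in the lower and 0.25 in the higher range, and Creld2 by 0.24 and 0.40. Ern1 was at 0.14 in the lower range and at -0.09 in the higher range (unadjusted interaction p = 0.0596 in edgeR). At an unadjusted p under 0.05, 6 members (Ern1, Xbp1, Edem1, Herpud1, Dnajc3 and Sdf2l1) were higher in the lower range, against 9.53% of genes, and 0 were in the higher range, against 2.34% of genes, where 0% of genes passed the adjusted threshold. The higher range holds 3 mice of each condition and 1 set of each, so condition and set cannot be told apart in it.

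**Figure D3:**
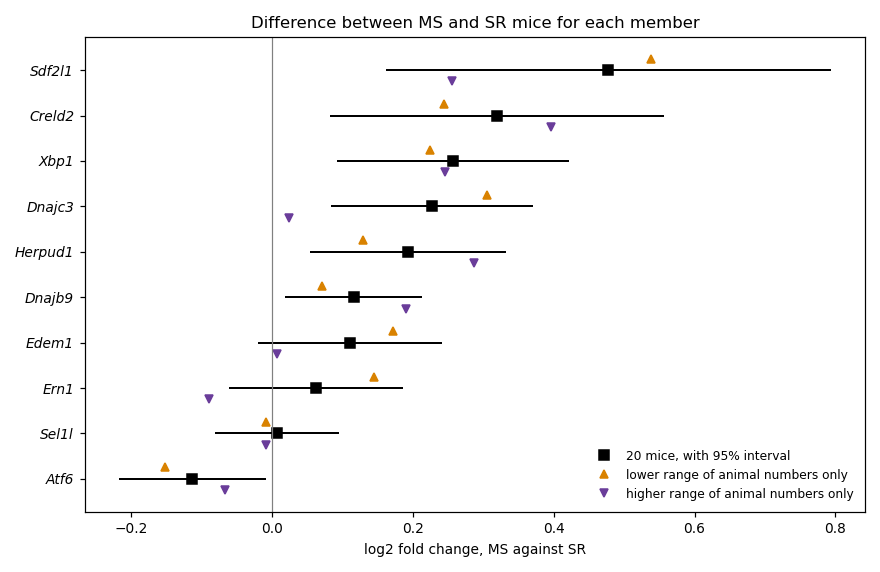
Log2 fold change of MS against SR for each member, with its 95% interval over 20 mice (black squares and lines) and the values within the lower (orange) and higher (purple) range of animal numbers. Sdf2l1 lies farthest to the right at 0.48, Atf6 lies at -0.11, and Dnajc3 lies at 0.31 in the lower and 0.02 in the higher range. The library A2 is in none of these values.

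Markers of neighbouring tissue had higher fitted levels in MS, with sums that overlapped between the groups. All 8 markers of the choroid plexus, which projects into the ventricle beside the hippocampus, were higher in MS with a median log2 fold change of 0.91, although 0 of 8 had an unadjusted p under 0.05 in edgeR. None was at 0, and their summed level ran from 55.7 through a median of 3365 to 4257 CPM in MS and from 31.1 through 849 to 4575 CPM in SR. All 4 markers of ependyma were higher (median 0.56, 2 of them at an unadjusted p under 0.05), with sums of 12.2 to 69.3 CPM in MS and 15.4 to 38.4 CPM in SR. The 7 striatal markers were higher as well (median 0.48, 0 of them at an unadjusted p under 0.05 in edgeR), with sums of 81.9 to 680 CPM in MS and 88.1 to 425 CPM in SR. The other 7 marker lists, of neurons, glia, endothelium and immediate early genes, had medians of -0.09 to 0.07 and 0 genes at an unadjusted p under 0.05 in edgeR or called by DESeq2. In bulk tissue, fewer cells of a type and less RNA per cell cannot be told apart.

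Among the members, Dnajc3 followed the choroid plexus score most closely. Over the 20 mice, its deviations from the group mean correlated with those of the score at r = 0.59 (rho = 0.49, r = 0.50 without the 2 farthest mice), and r was 0.50 within the lower and 0.95 within the higher range. In the lower range the score ran from 6.00 to 6.48 in MS mice, without A2, and from 1.62 to 6.45 in SR mice. In the higher range it ran from 1.97 to 5.11 in MS and from 2.05 to 6.38 in SR mice. Dnajc3 was not fitted with the score within a range. Over the 20 mice, with the score as a term, the difference of Dnajc3 was 0.15 (edgeR unadjusted p = 0.0187), where it was 0.23 without the term. The same term left Xbp1 at 0.27, Creld2 at 0.31 and Sdf2l1 at 0.44, and the r of these 3 genes with the score over the mice was -0.11, 0.06 and 0.11. With the ependyma score as a term Dnajc3 was at 0.17 and Sdf2l1 at 0.39, and with the striatum score they were at 0.22 and 0.47. Correlations here are descriptions of mice that share sets, and the part of tissue makeup in the members' differences was not tested beyond these terms.

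Some members varied together from mouse to mouse within a condition, and others did not. Over the 45 pairs of members, Pearson's r of the deviations from the group mean in 20 mice ran from -0.36 to 0.87 with a median of 0.27, and 39 pairs were positive. Pairs of genes outside the members were not measured, so the members cannot be said to vary together more than other genes do. Xbp1, Herpud1, Sdf2l1 and Creld2, a quartet picked after these values were seen, had r of 0.75 to 0.87 in all 6 of their pairs. Xbp1 and Creld2 gave r = 0.87 (rho = 0.82, r = 0.88 without the 2 farthest mice), with 0.92 within MS and 0.83 within SR. Xbp1 and Ern1 gave r = -0.22 (0.01 without the 2 farthest mice), and Xbp1 and Atf6 gave r = 0.10. Mice of 1 set may share a nest, which enters all of these values.

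**Figure D4:**
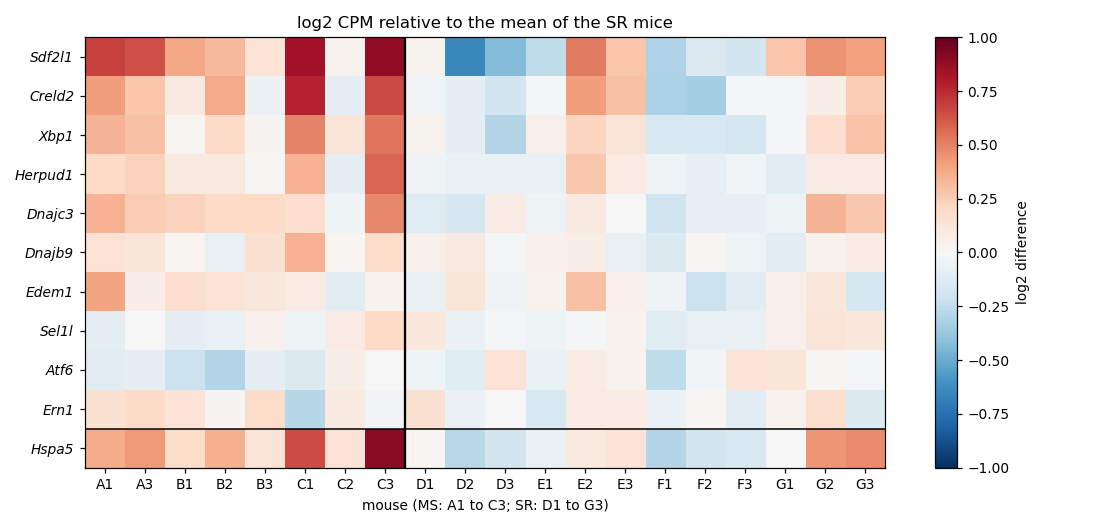
Log2 CPM of each member, and of Hspa5 for comparison, in each of the 20 mice relative to the mean of the SR mice (red higher, blue lower), with MS mice left of the black line. The rows of Sdf2l1, Creld2, Xbp1, Herpud1 and Hspa5 are red in the MS mice A1, A3, C1 and C3, while Sel1l, Atf6 and Ern1 stay paler. Some SR mice are red as well, such as E2, G2 and G3 for Sdf2l1. For Hspa5, the SR mice G2 and G3 lie above A1 and A3.

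The genes whose pattern was most like that of the members were found by correlation over the 20 mice. Among 10345 genes of at least 10 CPM, the 5 with the highest r to the mean deviation of the members were Hsp90b1 (r = 0.89), Hspa5 (0.89), Pdia4 (0.88), Manf (0.85) and Dnajb11 (0.81). Hspa5, the chaperone BiP to which IRE1 and ATF6 are bound at rest, correlated with Xbp1 at r = 0.89, with Sdf2l1 at 0.85, with Creld2 and Dnajc3 at 0.79 and with Herpud1 at 0.77. Its r was 0.67 with Sel1l, 0.43 with Dnajb9, 0.21 with Atf6, 0.03 with Edem1 and -0.17 with Ern1. It ran from 282 through 332 to 483 CPM in MS and from 211 through 253 to 358 CPM in SR, with the MS mice C3 and C1 highest and the SR mice G2 and G3 the highest of their group. The log2 fold change of Hspa5 was 0.40 (SE 0.115, edgeR adjusted p = 0.191).

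The other genes of the pathway give the setting. Of 15 ER chaperones and folding enzymes, 15 were higher in MS, 12 of them at an unadjusted p under 0.05, with a median log2 fold change of 0.16, close to that of the members. In edgeR 0 of the 15 passed the adjusted threshold, and in DESeq2 Hspa5, Pdia3, Pdia4, Pdia6 and Manf did. Over all genes tested, 50.3% were higher in MS, 6.62% were higher at an unadjusted p under 0.05 in edgeR, and DESeq2 called 0.775%. Pathway lists here and below were chosen with earlier results of these data known, so their counts describe them and do not test them. Manf, a secreted ER stress protein, had the smallest p, at 44.3 ± 6.19 CPM in MS and 33.9 ± 4.51 CPM in SR (log2 fold change 0.38, SE 0.0810, edgeR adjusted p = 0.111). ERSE letters were in 5 of the 12 windows matched for this list (Hspa5, Hsp90b1, Calr, Canx and Pdia6).

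The sensors' partners were mixed. Of 9 listed, 8 were tested, 5 were higher and 3 lower, and 1 had an unadjusted p under 0.05. This was Traf2, an adaptor that IRE1 recruits, at 11.2 ± 0.985 CPM in MS and 9.72 ± 0.634 CPM in SR (log2 fold change 0.20, SE 0.0578, edgeR unadjusted p = 0.00203). The lower gene with the smallest p was Mbtps2, a protease that releases ATF6 (-0.07, SE 0.0399, edgeR unadjusted p = 0.0734).

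Of 17 other ERAD genes, 11 were higher and 6 lower in MS, with a median log2 fold change of 0.02. Those at an unadjusted p under 0.05 were Derl1, Derl2, Syvn1 and Selenos (higher) and Nploc4 (lower). Derl1, a channel protein of ERAD, was at 0.12 (SE 0.0495, edgeR unadjusted p = 0.0285) and Nploc4, a cofactor of the ATPase VCP, at -0.08 (SE 0.0359, edgeR unadjusted p = 0.0422). ERAD genes outside the members thus had a smaller median than the chaperones, a difference that was not tested.

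The PERK arm, the other branch of the response, lay near 0. Of its 9 genes, 7 were higher and 2 lower, 0 had an unadjusted p under 0.05 in edgeR and 0 passed in DESeq2, and the median log2 fold change was 0.02. Atf4, its main transcription factor, was at 94.2 ± 5.59 CPM in MS and 91.4 ± 8.00 CPM in SR (log2 fold change 0.04, SE 0.0492), and Trib3, at under 1 CPM, was at -0.30 (SE 0.280). None of the 9 promoter windows of that list held ERSE letters, which only 0.119% of all windows held, so their absence does not set this list apart. Among 7 mRNAs known to be cut by IRE1 when it is active, 2 were higher and 5 lower, 0 of them at an unadjusted p under 0.05, with a median of -0.04. Sparc was at 0.11 (SE 0.0647) and Pdgfrb at -0.10 (SE 0.0586).

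Most members have a paralog or a more distant relative, and 7 of the 9 such genes listed, called paralogs here, were tested. The lists share genes, so some were already counted above. Ern2 and Atf6b are also among the sensors' partners, and Edem2 and Edem3 among the other ERAD genes. Sdf2, Creld1 and Dnajb11 are also among the ER chaperones. Ern2 and Sel1l2 were near 0 in the hippocampus, at a median of 0.205 and 0 CPM in MS mice and 0.177 and 0 CPM in SR mice. Atf6b was at -0.03 on the log2 scale (SE 0.0570), Edem2 and Edem3 both at 0.02 and Sel1l3 at -0.07. The paralogs of the co-chaperones were higher at an unadjusted p under 0.05 in edgeR, with Sdf2 at 0.16 (p = 0.00454), Creld1 at 0.12 (p = 0.00878) and Dnajb11 at 0.14 (p = 0.0230), and 0 of the 7 passed the adjusted threshold. Sdf2 was at 35.05 ± 3.26 CPM in MS and 31.4 ± 2.14 CPM in SR, so its difference was smaller than that of Sdf2l1.

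Levels between genes were compared per kilobase of exon. Over the 20 mice of both groups the median level was highest for Sel1l, at 23.1 CPM per kilobase (range 21.5 to 26.9), followed by Xbp1 at 22.3 (17.1 to 30.3) and Herpud1 at 19.8 (17.7 to 28.6). These 3 overlapped in range, and the order of the first pair turned between the groups, with Xbp1 at 25.2 ± 3.45 and Sel1l at 23.5 ± 1.70 CPM per kilobase in MS and at 21.1 ± 2.62 and 23.4 ± 1.38 in SR (mean ± SD). Dnajc3 at 13.1, Dnajb9 at 12.9, Creld2 at 12.7 and Sdf2l1 at 11.2 CPM per kilobase formed a middle group whose ranges overlapped, and Atf6, at 8.92 (7.45 to 10.1), lay within the range of Sdf2l1 (5.91 to 17.1). Edem1 at 3.71 (3.09 to 4.74) and Ern1 at 2.13 (1.70 to 2.38) lay apart below all other members. Atf6b, at 31.9 CPM per kilobase, lay above Atf6 in every mouse (lowest 26.6, against a highest Atf6 of 10.1), and Sdf2, at 21.6 (19.0 to 27.3), lay above the whole range of Sdf2l1.

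**Figure D5:**
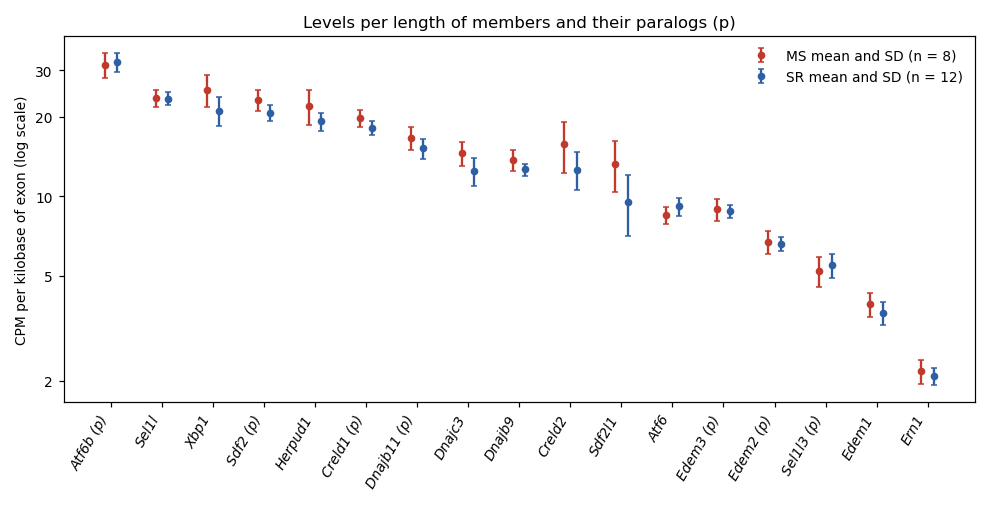
Mean and SD of the level per kilobase of exon (log scale) of members and their tested paralogs (marked p) in 8 MS and 12 SR mice. Atf6b is highest and Ern1 lowest, and the red MS and blue SR points lie farthest apart for Sdf2l1.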

How the data were processed

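The authors sequenced poly-A RNA of the hippocampus with a directional kit, aligned paired-end reads to GRCm38 with STAR 2.7.3a, used featureCounts to count them per Ensembl gene, and deposited the raw counts, with no normalization or filter. The strand setting is not given in the sources used here. The treatment in the labels gave the groups. Counts were normalized by TMM, filtered (filterByExpr, minimum count 10) and tested with edgeR 4.0.16 (robust quasi-likelihood, R 4.3.3), with Benjamini-Hochberg adjustment over 18146 genes and a threshold of 0.05. DESeq2 1.42.0 and limma 3.58.1 served as alternatives. Per the study's methods 1 outlier was removed without being named, and the library farthest on the first principal component of the 500 most variable genes was left out here. CPM are counts scaled by the TMM-normalized library total, and log2 CPM used a prior count of 2. The SE was derived from the log2 fold change and edgeR's F. The choroid plexus, striatum and ependyma scores are means of log2 CPM of their markers. Gene positions and exon lengths are those of GENCODE M21, and no member shares exon bases with a gene on its own strand. Members and lists were chosen with earlier results of these data known. The genes named are the members, their paralogs, the gene of smallest p in each direction in each list and the 5 genes most like the members, while Derl2, Syvn1, Selenos, Pdia3, Pdia6, Calr and Canx were named after their values were seen. The labels do not say whether the mice of a set share a nest. Whole nests were assigned to a condition, and p-values over mice take the mice as independent. Counting intervals cover counting error only. The fits were tested on simulated data.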

Additional observations from a re-analysis of the deposited data

How the results depend on the processing

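The count of genes past the adjusted threshold (2 in the main comparison) depended on the setting. It was 119 in DESeq2, 4 with the transcript length trend as a term and 1 with all 21 libraries, without a filter on low counts or without set G. It was 0 with the choroid plexus score, with the ependyma score (a term chosen after seeing the data), with counts summed within sets, and without set A, B, D or F, and it was 340 without set C, 230 in the lower range and 0 in the higher range, where 810 genes had an unadjusted p under 0.05 in edgeR. Leaving out 1 library at a time gave 0 to 109, with 109 without C2 or C3 and 0 without any 1 of A1, A3, B1 and B2 (MS) or D2, E3 and F1 (SR). The cause was not tested. The other edgeR fits that called 0 genes had 1494 to 2069 genes at an unadjusted p under 0.05. Members higher at an unadjusted p under 0.05 in edgeR numbered 6, and 0 in the higher range, which holds fewer mice. That count was 5 with the ependyma score and without set A, C or F, 7 without C2, E2 or set E, and 6 under every other alternative run. The genes behind an equal or similar count were not always the same. Without set C they included Ern1 and Edem1, and not Xbp1, Dnajb9 or Creld2. Without C1 they included Ern1 and not Dnajb9. Over the 41 alternatives, 8 members kept the direction of their difference throughout. Ern1 turned to -0.0897 in the higher range. Sel1l, near 0, turned to -0.0068 with all libraries, -0.0026 without a filter, -0.0092 with the range as a term, -0.0413 without set C, -0.0262 without set F and -0.0087 within either range, and lay between -0.0252 and 0.0188 with 1 library left out. Dnajc3 passed the adjusted threshold under 1 of the 41 alternatives, the lower range, which was fitted without A2 only. Without set C, Xbp1 was at 0.17 (unadjusted p = 0.0542) and Creld2 at 0.22 (unadjusted p = 0.0616) in edgeR. With 1 library left out, Xbp1, Herpud1, Dnajc3, Sdf2l1 and Creld2 kept an unadjusted p under 0.05 in 20 of 20 fits, Dnajb9 in 19 (not without C1) and Atf6 in 15 (not without B1, B2, C1, D3 or F3). The core letters alone matched 8 member promoters, against 3 for the longer elements. No paired analysis was possible because the replicate numbers of the labels do not pair MS with SR mice.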
